A study of Mus with 10 samples.

Results

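Control skin was set against skin labelled as having a 3-day gap following PUVA, psoralen plus ultraviolet A, on 2 and 4 of the 10 arrays of the series. The arrays were chosen by their titles alone, and the comparison took in 22180 genes, those with a probe set that carries 1 gene symbol. Total RNA of skin from female BALB/c mice, aged 7 to 8 weeks, had been labelled with biotin and hybridised to Affymetrix gene arrays, 1 array per sample. Mice of the 3-day group had psoralen applied to the skin, then UVA at 0.25 J/cm2, in 2 sessions a week over 2 weeks, with a gap of 3 days afterwards. The 7-day group, 4 arrays used here only for reference and for the shared estimate of spread, had the same sessions and a gap of 7 days. For the 2 control arrays the labels give strain, sex, age and tissue and no treatment. The protocol, written once for the whole series, puts imiquimod, a cream that produces psoriasis-like inflammation in mice, after the gap and speaks of no gap for controls. No array's own label says whether that skin received imiquimod, whether the controls received psoralen or light, how long after the last session any skin was taken, or whether samples came from separate mice. P-values thus reflect only variation from sample to sample, part of which may be technical. The question set by the series title is how PUVA pretreatment, with senescence named, relates to the imiquimod phenotype; the comparison here is the part of it that sets 3-day skin against control.

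Psoralen enters DNA and, on UVA light, crosslinks the strands, so that dividing cells stall. Skin holds several compartments that such an array reads together: the layered epidermis, hair follicles that cycle between growth and rest, sebaceous glands that secrete lipid, a dermis of fibroblasts and matrix, vessels, nerves and immune cells. A growing follicle carries dividing matrix cells, an inner root sheath rich in trichohyalin and its own keratins, and a hard-keratin shaft, and most of these transcripts are low in a resting follicle. Interferons, released on sensing of nucleic acid or by lymphocytes, switch on a shared set of antiviral and chemokine genes in most cell types.

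Whole skin was in hand on all arrays. The epidermal keratin genes Krt10 and Krt1 and the dermal Col1a1 gave log2 values above 10 on each of the 6 arrays, and muscle (Acta1 above 12) and fat genes (Adipoq above 8) were also present. Krt5, Krt85 and the haemoglobin genes were not analysed here. Array medians over genes lay between 6.40 and 6.50 and lower quartiles between 4.49 and 4.57, and the files carry no measure of depth or detection. Correlations over genes were 0.989 to 0.994 between control replicate 1 and the 3-day arrays, 0.988 to 0.991 between control replicate 2 and the same arrays, 0.993 between the controls, and 0.990 to 0.995 among the 3-day arrays. The controls differed from each other in hair, cell cycle and pigment genes, with control replicate 2 higher by a median of 2.57 on the log2 scale over 14 inner root sheath genes, 0.50 over 29 mitosis genes and 0.91 over 13 melanocyte genes. For this reason the difference of the 3-day mean is given against each control, and a gene is called clear of both controls where all 4 three-day arrays lay on one side of both. In whole skin, fewer cells of a type and less RNA per cell cannot be told apart.

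Of the 22180 genes, 1 passed an adjusted p of 0.05 (limma over all 10 arrays, Benjamini-Hochberg adjustment), which is 0.00451% of those tested. That gene, Hamp, fell, and none passed in the other direction. At an unadjusted p of 0.05, 1258 genes (5.67%) lay higher and 902 (4.07%) lower. All 4 three-day arrays lay above both controls in 2112 genes (9.52%) and below both in 1749 (7.89%). Among them the 3-day mean lay at least 0.5 from the nearer control in 202 genes upward (0.911%) and in 59 downward (0.266%). Of these, 27 and 23 had symbols of gene models, microRNAs or olfactory and vomeronasal receptors, and 5 others of the 202 were small nucleolar RNA genes by their RefSeq biotype. These shares over all genes are the background against which the counts of gene groups are set below. Apart from Hamp, no difference from control given here passed the threshold, so the values describe these 6 arrays. Without control replicate 1 the median difference was -2.71 for the inner root sheath list and -0.64 for the mitosis list. Without control replicate 2 these medians were -0.16 and -0.10. Each of these fits leaves 1 control array and no spread between controls, so no count of genes past the threshold is given for them. Leaving out 3-day replicate 2, 3 or 4 gave 6, 4 and 2 genes past the threshold, and leaving out 7-day replicate 4 gave 2. The counts of 202 and 59 became 543 and 544 against control replicate 2 alone, 596 and 293 against control replicate 1 alone, and 370 and 89 without 3-day replicate 3. The errors given after ± are standard errors of the fit unless marked as SD.

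**Figure D1:**
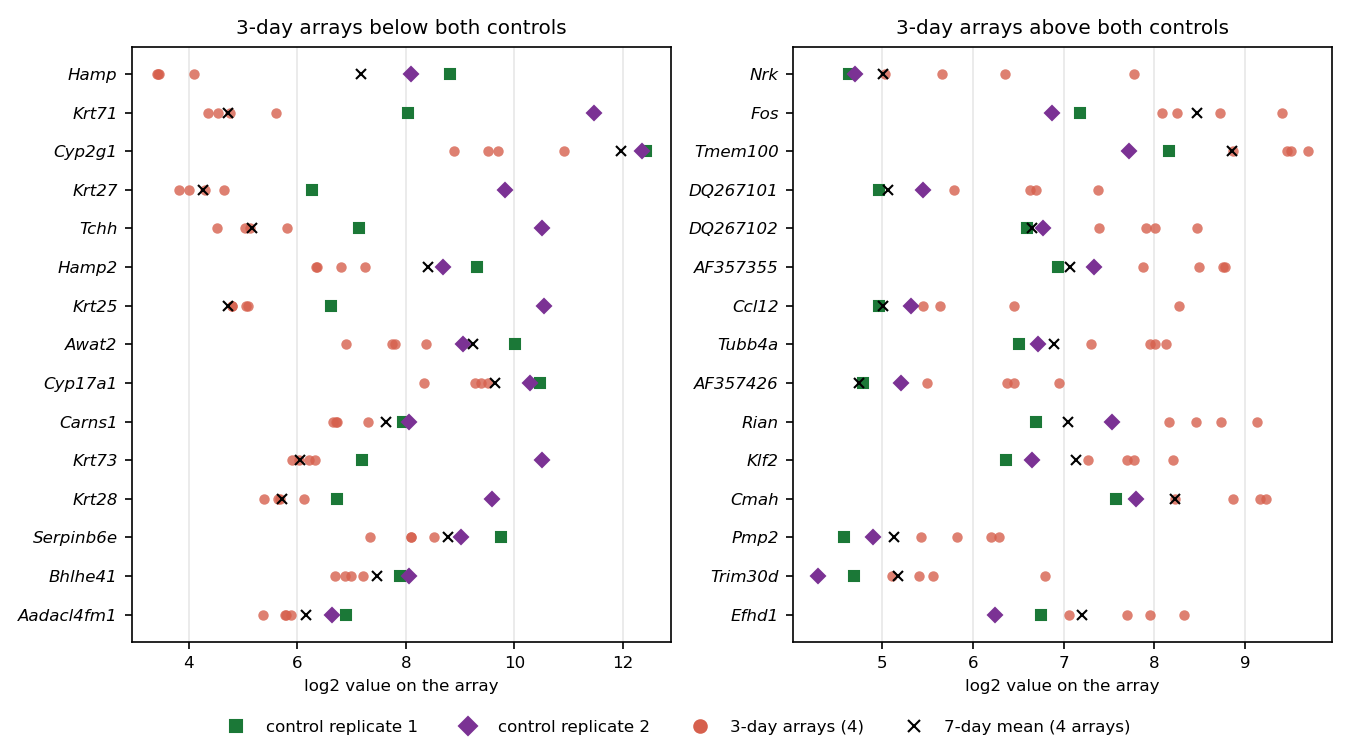
Log2 values of the 15 named genes with the largest distance below both controls (left) and above both (right), 1 gene per row; green squares are control replicate 1, purple diamonds control replicate 2, red dots the 4 three-day arrays and black crosses the mean of the 4 seven-day arrays. Hamp lay at 8.82 and 8.10 in the controls and at 3.41 to 4.09 in the 3-day arrays, Cyp2g1 at 12.43 and 12.36 against 8.90 to 10.92, and the root sheath keratins show the wide gap between the controls.

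The gene that fell encodes hepcidin, and its copy lay lower with it. Hepcidin, from Hamp, is the peptide hormone that makes cells take the iron exporter ferroportin off their surface. Its values were 8.82 and 8.10 in control replicates 1 and 2 and 4.09, 3.44, 3.41 and 3.42 in the 4 three-day arrays. The groups did not overlap, and all 4 three-day values lay below the lower quartile of their arrays. The difference was -4.87 ± 0.44 on the log2 scale (limma, adjusted p = 0.00826), with -5.23 against control replicate 1 and -4.51 against control replicate 2. The 7-day mean was 7.18 ± 0.82 (SD, n = 4), higher than the 3-day mean by 3.59 ± 0.36 (limma, adjusted p = 0.022, 1 of 2 genes, 0.00902% of those tested, to pass in that comparison). Hamp2, a close copy whose probes may share signal with Hamp, had 9.32 and 8.69 in the controls and 6.34, 7.25, 6.81 and 6.36 in the 3-day arrays. That difference, -2.32 ± 0.30, did not pass (limma, adjusted p = 0.0758). For Hamp the adjusted p was 0.00182 to 0.0475 over 17 alternatives, with the highest value without control replicate 2.

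Most other iron genes lay near control. Of 23 measured genes of iron handling without Hamp and Hamp2, 4 lay above both controls (17.4%, against 9.52% of all genes) and 1 below, with a median difference of 0.04. Those above were Slc11a1, a metal transporter of phagocytes, with differences of 0.45 and 0.42 from the controls, the ferrireductase Steap3 with 0.45 and 0.33, Hfe, a regulator of hepcidin, with 0.37 and 0.15, and the ferritin heavy chain Fth1 with 0.12 and 0.16. Ferroportin itself, Slc40a1, had 8.22 and 8.74 in the controls and 8.11, 8.07, 8.70 and 8.05 in the 3-day arrays. The transferrin receptor Tfrc differed by -0.09 ± 0.14. Bmp6, a ligand that drives hepcidin transcription in liver, was the member below both controls, with differences of -0.20 and -0.34. Among defining liver genes, Alb was not lower. It had 6.91 and 6.83 in the controls and 7.28, 7.001, 7.21 and 6.91 in the 3-day arrays. Apoa1, Ttr and Apob differed by 0.11, 0.17 and 0.20. Serpina1a stayed between 2.99 and 3.23 on these 6 arrays. Serpina1a and Apob (4.22 and 3.88) lay below the lower quartiles of the control arrays, 4.54 and 4.49. Apoa1 (5.02 and 5.29) and Ttr (5.15 and 5.06) lay little above them in the controls. A drop as large as that of Hamp thus could not have shown in any of these genes.

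Several genes of the inner root sheath were lower in the 3-day arrays than in either control, and far lower than in control replicate 2. Krt71, a type II keratin of this sheath, had 8.04 and 11.47 in the controls and 4.36, 4.54, 5.60 and 4.76 in the 3-day arrays. The 3-day mean differed by -3.23 from control replicate 1 and by -6.66 from control replicate 2, and the difference from both, -4.94 ± 0.75, did not pass (limma, adjusted p = 0.086). Tchh, trichohyalin, the protein that hardens the sheath, had 7.14 and 10.51 in the controls and 4.51, 5.04, 5.80 and 5.13 in the 3-day arrays. Krt25 and Krt27, the type I partners, gave 6.62 and 10.54 and 6.27 and 9.83 in the controls. In the 3-day arrays Krt25 gave 5.05, 5.10, 4.79 and 4.80 and Krt27 gave 4.003, 4.30, 4.64 and 3.81. In these 4 genes no 3-day array reached either control, and the controls lay more than 3 log2 units apart.

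Over the 14 measured inner root sheath genes, 7 (50.0%, against 7.89% of all genes) lay below both controls and none above, 6 of them by 0.5 or more. The median difference was -0.16 against control replicate 1 and -2.71 against control replicate 2. The members divided. Krt71, Krt27, Tchh, Krt25, Krt73 and Krt28 differed from control replicate 1 by -3.23 to -1.03. Padi3, the enzyme that deiminates trichohyalin, differed from control replicate 1 by -0.09 and from control replicate 2 by -2.36, and Krt72 by -0.05 and -2.004. The list mean was 6.34 and 8.47 in the controls, 5.41, 5.44, 5.78 and 5.44 in the 3-day arrays and 5.54, 5.48, 5.49 and 5.55 in the 7-day arrays, so both PUVA groups sat at one level. For those 6 genes the size of the difference depended on the control and its direction did not.

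Hair shaft genes were shifted in the same direction with smaller differences. Of 20 hair shaft keratin and associated genes, 10 (50%, against 7.89% of all genes) lay below both controls. Above both lay 2 (10%, near the 9.52% of all genes). The medians were -0.17 and -0.93 against control replicates 1 and 2. Krt33a, a hard keratin of the shaft cortex, had 5.40 and 7.43 in the controls and 5.04, 4.81, 5.07 and 5.07 in the 3-day arrays. Krt82, a keratin of the shaft cuticle, was the member farthest from the nearer control, with 5.21 and 5.76 against 4.71, 4.47, 4.99 and 4.56. Krt36 went the other way, with 5.14 and 5.77 in the controls and 6.46, 6.15, 5.90 and 6.21 in the 3-day arrays, all 4 above both. Krt75, a keratin of the companion layer that is in none of the lists, lay at 7.71, 8.31, 8.02 and 8.65 against 8.97 and 9.53.

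Keratin-associated proteins form the matrix around the hard keratin filaments. Among 51 measured genes, 16 (31.4%) lay below both controls and 2 above. The medians against the controls were -0.14 and -0.50. Many of these genes sat near the dim end on all arrays: the list mean was 4.28 and 5.18 in the controls and 4.14, 4.12, 4.25 and 4.08 in the 3-day arrays. Krtap4-16 had 5.35 and 8.19 in the controls and 4.67, 4.38, 4.82 and 4.47 in the 3-day arrays, and Krtap11-1 had 4.39 and 5.26 and 3.89, 3.80, 3.71 and 3.56. Both lay clear of both controls, while the size of the difference for Krtap4-16 went from -0.76 against control replicate 1 to -3.61 against control replicate 2.

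Growth signals of the follicle were also compared. Of 37 genes, 10 (27.0%) lay below both controls and none above, with medians of -0.03 and -0.28. Some members belong to the hedgehog pathway, which drives proliferation of the follicle matrix. Ptch1, its receptor and target, lay below both controls, with 8.29 and 9.53 in the controls and 7.91, 8.04, 7.999 and 7.80 in the 3-day arrays. Gli1, its transcription factor and target, did so too, with 6.69 and 7.76 and 6.62, 6.64, 6.46 and 6.16. The ligand Shh had 4.14 and 4.84 and 3.68, 3.48, 3.91 and 4.25, with 1 of the 4 three-day arrays above control replicate 1. Msx2, a homeobox factor of the hair matrix, lay below both controls, at 5.82 to 6.11 against 6.20 and 7.06. Lef1, the Wnt effector of the matrix, lay at the level of control replicate 1 (difference 0.04) and below control replicate 2 (-1.48).

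Mitosis genes were slightly lower than in control replicate 1 and clearly lower than in control replicate 2. The 29 measured genes all had a difference below 0 against the control mean, and 13 of them (44.8%) lay below both controls. Their median differences were -0.10 and -0.64 against the first and second control. Mki67, the Ki-67 proliferation antigen, had 9.74 and 10.24 in the controls and 9.50, 9.54, 9.62 and 9.55 in the 3-day arrays. Bub1, a checkpoint kinase of the spindle, had 5.51 and 6.01 and 5.34, 5.26, 5.39 and 5.24. These groups did not overlap, but the difference from control replicate 1 was -0.19 for Mki67 and -0.20 for Bub1, smaller than the gap between the controls. Neither passed (limma, adjusted p = 0.319 and 0.364).

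Genes of DNA replication had no common position against control replicate 1. Of 31, 5 (16.1%, against 7.89% of all genes) lay below both controls. The median difference was 0.01 against control replicate 1 and -0.67 against control replicate 2, so the sign of the shift rested on the second control. Gins1, a subunit of the replicative helicase, was the lowest, with 5.28 and 6.04 in the controls and 4.96, 5.13, 5.13 and 5.07 in the 3-day arrays. Rrm2, the small subunit of ribonucleotide reductase, had 7.003 and 7.62 and 6.99, 6.82, 6.75 and 6.72. The helicase subunits Mcm2 and Mcm5 differed from control replicate 1 by 0.15 and 0.11 and from control replicate 2 by -1.04 and -1.08.

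Repair genes, which act on crosslinks and bulky lesions, showed small differences. Of 28 genes of crosslink and excision repair, 9 (32.1%) lay below both controls and none above, with medians of -0.04 and -0.16. Fancd2, which is ubiquitinated at stalled crosslinks, had 6.45 and 7.02 in the controls and 6.19, 6.33, 6.39 and 6.37 in the 3-day arrays. Polh, the polymerase that copies across UV lesions, differed from the controls by -0.16 and -0.20, and Ercc6, needed for transcription-coupled repair, by -0.22 and -0.18.

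**Figure D2:**
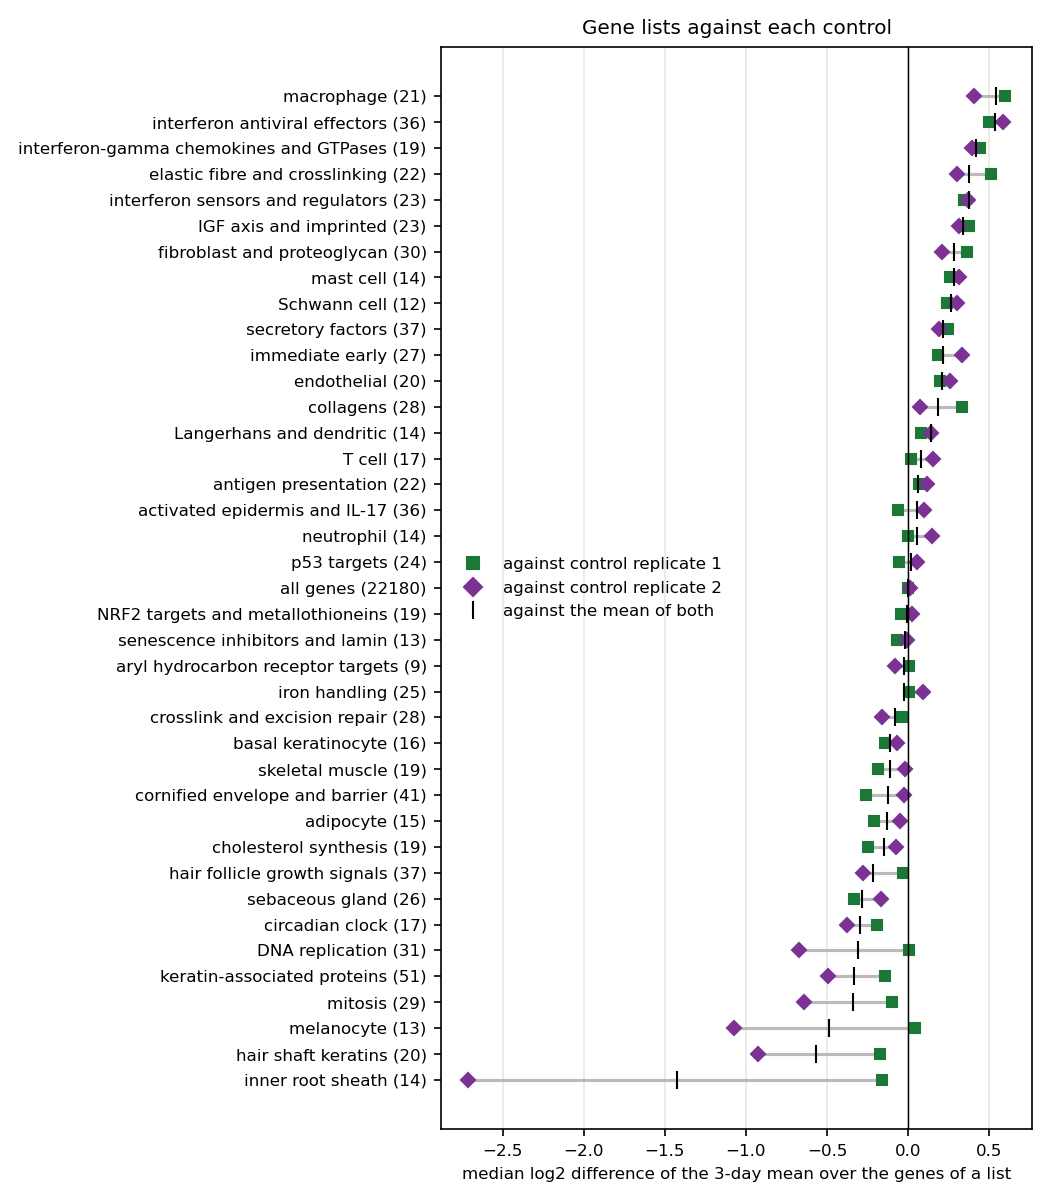
Median log2 difference of the 3-day mean over the measured genes of each list (number of genes in brackets), against control replicate 1 (green squares), control replicate 2 (purple diamonds) and the mean of both (black ticks). Macrophage and interferon lists lay to the right of 0 against both controls, while the inner root sheath list went from -0.16 against control replicate 1 to -2.71 against control replicate 2.

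Some enzymes in none of the lists lay far below both controls. Cyp2g1, a cytochrome P450 best known from the olfactory mucosa, was among the brightest genes in control skin, with 12.43 and 12.36, and had 8.90, 10.92, 9.70 and 9.51 in the 3-day arrays. The controls lay close together, and no 3-day array came within 1 log2 unit of either. The difference of -2.64 ± 0.41 did not pass (limma, adjusted p = 0.0891). The 7-day mean was 11.96 ± 0.23 (SD, n = 4). Cyp17a1, a steroid hydroxylase and lyase, had 10.47 and 10.28 in the controls and 8.33, 9.52, 9.28 and 9.39 in the 3-day arrays. Carns1, which joins histidine and beta-alanine to carnosine, had 7.95 and 8.06 and 6.73, 7.31, 6.70 and 6.65.

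In the sebaceous gland list Awat2, an acyltransferase that makes wax esters, lay farthest below the nearer control. It had 10.01 and 9.06 in the controls and 6.90, 7.79, 8.37 and 7.74 in the 3-day arrays, against a 7-day mean of 9.24. Awat1, its relative, had 10.52 and 9.99 and 8.15, 9.29, 10.23 and 9.67, and replicate 3 of the 3-day group overlapped the controls. Agpat2, which makes phosphatidic acid for lipid storage, had 9.92 and 10.10 and 9.49, 9.34, 9.17 and 9.20, a difference of -0.71 ± 0.10 (limma, adjusted p = 0.086). Acer2, a ceramidase that is not in the list, lay at 7.77, 7.87, 8.39 and 8.01 against 9.34 and 8.82. Over the 26 genes of the list, 5 (19.2%, against 7.89% of all genes) lay below both controls and none above. Of the 26, 24 lay below the control mean, and the medians were -0.34 and -0.17. Elovl3, the fatty acid elongase of the gland, went the other way, with 8.78, 9.45, 10.62 and 10.29 against 9.42 and 9.24. Replicate 1 of the 3-day group was the lowest of the 4 in 16 of the 26 genes, and the list mean was 9.69, 10.04, 10.31 and 10.19 in the 3-day arrays and 10.47 and 10.32 in the controls.

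Cholesterol synthesis genes were shifted slightly downward. Of 19, 4 (21.1%) lay below both controls and none above, with medians of -0.25 and -0.07. Sc5d, which acts late in the pathway, had 10.47 and 9.72 in the controls and 9.59, 9.30, 9.19 and 9.34 in the 3-day arrays. Srebf2, the transcription factor of the pathway, differed by -0.18 ± 0.07.

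Interferon-stimulated genes were higher in the 3-day arrays, with a wide spread among the 4. Irf7, the factor that amplifies type I interferon production, had 7.18 and 7.26 in the controls and 7.94, 8.97, 7.67 and 8.08 in the 3-day arrays. All 4 lay above both controls, and replicate 2 lay about a log2 unit above replicate 1. The difference was 0.95 ± 0.28 (limma, adjusted p = 0.352). Usp18, which removes ISG15 from proteins and dampens interferon signalling, had 7.61 and 7.48 and 8.23, 8.83, 7.74 and 8.51. Zbp1, a sensor of nucleic acid in the Z form, lay higher than the controls by 1.02 and 0.85, and Sting1, the adaptor of cytosolic DNA sensing, by 0.68 and 0.52. Cgas, the DNA sensor upstream of it, differed by 0.17 and 0.13 without lying clear of both.

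Of 23 sensors and regulators, 14 (60.9%, against 9.52% of all genes) lay above both controls and none below, with medians of 0.35 and 0.37. The antiviral effectors behaved alike. All 36 had a difference above 0, 19 (52.8%) lay above both controls, and the medians were 0.50 and 0.58. Mx2, a GTPase that blocks viral replication, had 5.40 and 5.20 in the controls and 6.001, 7.09, 5.53 and 6.07 in the 3-day arrays. Ifit1, which binds foreign RNA ends, had 6.64 and 6.43 and 7.22, 8.48, 6.67 and 7.27. Apol9b, with a narrow spread, had 4.71 and 4.49 and 5.54, 5.37, 5.01 and 5.31, and Trim30d, a tripartite motif gene outside the lists, had 4.69 and 4.29 and 5.41, 6.79, 5.10 and 5.56. In some members the groups overlapped. Isg15 had 4.99 and 4.85 in the controls and 5.82, 6.89, 4.87 and 5.72 in the 3-day arrays, with replicate 3 between the controls.

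The same arrays led and trailed throughout this group. Replicate 2 had the highest of the 4 values in 31 of 36 effectors and 18 of 23 sensors, and replicate 3 the lowest in 29 and 20. The list mean of the effectors was 7.59, 8.19, 7.19 and 7.57 in the 3-day arrays, 7.11 and 7.07 in the controls and 7.66, 7.33, 7.27 and 7.59 in the 7-day arrays. Without replicate 2 the median difference of the effectors was 0.34 and that of the sensors 0.27. The part of macrophage content in these values, which moved with the same arrays as given below, was not tested.

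Genes induced by interferon gamma had the largest share of members above both controls among the 39 lists. Of 19 chemokines and GTPases, 14 (73.7%) lay above both controls and none below, with medians of 0.44 and 0.39. Cxcl9, Cxcl10 and Cxcl11 are ligands of CXCR3 that draw in activated T cells. Cxcl9 had 6.61 and 6.53 in the controls and 7.24, 7.47, 7.50 and 7.74 in the 3-day arrays. Cxcl11 had 5.65 and 5.25 and 6.24, 6.29, 5.96 and 6.44. In both, all 4 three-day values lay above both controls, and the 7-day means of 6.28 and 5.59 did not. The immunity-related GTPases Iigp1 and Irgm1 lay higher by 0.64 ± 0.24 and 0.52 ± 0.18. Here replicate 4 was the highest in 10 of the 19 genes.

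Antigen presentation was nearly level. Of 22 genes, 5 (22.7%) lay above both controls, with a median of 0.06. B2m, the light chain of class I molecules, had 12.83 and 12.73 in the controls and 12.78, 12.85, 12.82 and 12.82 in the 3-day arrays. Psmb10, a subunit of the immunoproteasome, was the clearest, with 7.62 and 7.55 and 7.77, 8.28, 7.77 and 7.996.

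**Figure D3:**
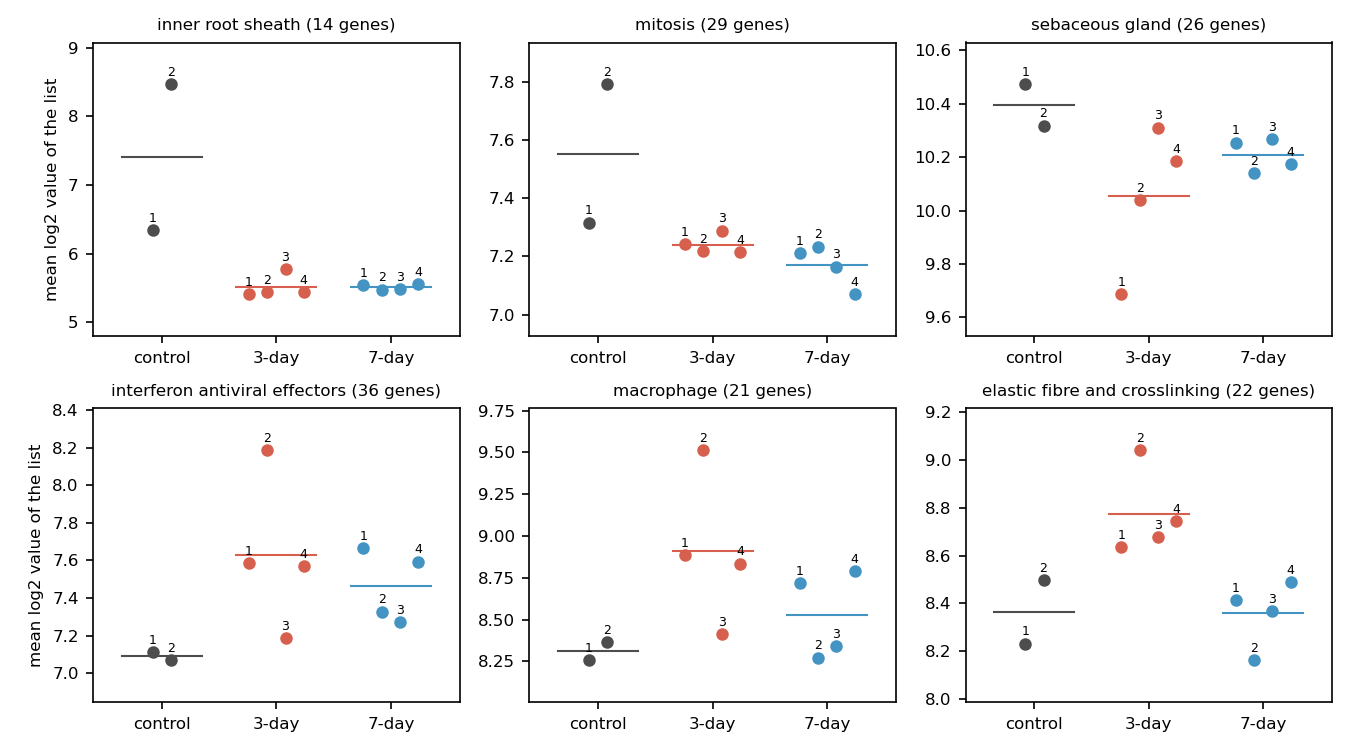
Mean log2 value over the genes of 6 lists on each array, by group, with replicate numbers beside the dots and group means as lines; the vertical axes differ between panels and do not start at 0. Three-day replicate 2 was highest and replicate 3 lowest for interferon effectors and macrophage genes, and all 4 three-day arrays lay above both controls for elastic fibre genes.

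Macrophage genes were higher in the 3-day arrays in the same order of arrays. The 21 measured genes all had a difference above 0, 8 (38.1%) lay above both controls, and the medians were 0.60 and 0.41. C1qb, a chain of complement C1q made by tissue macrophages, had 9.66 and 9.84 in the controls and 10.55, 11.13, 10.10 and 10.42 in the 3-day arrays. Folr2, a folate receptor of resident macrophages, had 9.76 and 9.94 and 10.99, 11.33, 10.30 and 10.59, a difference of 0.95 ± 0.26 (limma, adjusted p = 0.319). The mannose receptor Mrc1 had 10.77 and 10.76 and 11.44, 11.92, 10.89 and 11.21. The defining receptor Csf1r had 9.69 and 9.88 and 10.21, 10.30, 9.87 and 10.19, with replicate 3 just below control replicate 2. Replicate 2 was the highest in 19 of the 21 genes and replicate 3 the lowest in 20. The list mean was 8.89, 9.51, 8.41 and 8.84 in the 3-day arrays and 8.26 and 8.37 in the controls, so replicate 3 differed from control replicate 2 by less than the controls differed from each other.

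Some monocyte-attracting chemokines also lay above both controls, in part with another order of arrays. Ccl2 had 6.39 and 6.06 in the controls and 6.54, 7.90, 6.82 and 6.84 in the 3-day arrays, with replicate 1 the lowest, and Ccl7 had 6.92 and 6.52 and 7.22, 9.11, 7.06 and 7.43. Ccl12, which is in none of the lists, spanned almost 3 log2 units within the group, with 5.63, 8.27, 5.45 and 6.45 against 4.97 and 5.32, with replicate 2 far above the others. Csf1, the growth factor of macrophages, lay higher by 0.61 and 0.71.

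Other leukocyte genes were less shifted. Of 14 Langerhans and dendritic cell genes, 3 (21.4%, against 9.52% of all genes) lay above both controls, with a median of 0.14. Cd207, langerin, had 8.64 and 8.37 in the controls and 8.50, 8.53, 8.76 and 8.81 in the 3-day arrays. Of 17 T cell and cytotoxic genes, 5 (29.4%) lay above both. They were Il2rb, Gzmb, Gzma, Klrk1 and Nkg7, which natural killer and cytotoxic cells share. Il2rb, the beta chain of the interleukin 2 and 15 receptors, had 5.99 and 6.11 and 6.56, 6.75, 6.69 and 6.68, and granzyme B, Gzmb, had 3.60 and 3.63 and 3.84, 4.03, 4.30 and 4.25, near the dim end. The T cell receptor chains Cd3e and Cd3g differed by -0.07 ± 0.12 and -0.18 ± 0.11, neither clear of the controls. Among 14 neutrophil genes, 1 (7.14%) lay above and 1 (7.14%) below both controls, near the shares of all genes.

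Several mast cell genes were higher, with another array in the lead. Of 14 genes, 7 (50.0%) lay above both controls and none below, and the medians were 0.26 and 0.32. Cpa3, carboxypeptidase A3, had 10.64 and 10.60 in the controls and 11.09, 10.91, 11.49 and 11.09 in the 3-day arrays. Tpsb2, a tryptase, had 7.50 and 7.57 and 8.20, 7.87, 8.88 and 8.17, and Cma1, a chymase, had 6.74 and 6.67 and 7.28, 7.06, 7.73 and 7.13. The chymase Mcpt4 had 8.55 and 8.54 and 8.62, 8.68, 8.997 and 8.53, with replicate 4 below both controls. Replicate 3, lowest for macrophage genes, was highest in 11 of the 14. Kit and Fcer1a, which mast cells also express, differed by 0.05 and 0.01 and were not clear of the controls.

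Elastic fibre and crosslinking genes were higher in all 4 three-day arrays. Lox, lysyl oxidase, which crosslinks collagen and elastin, had 8.77 and 9.18 in the controls and 9.55, 10.40, 10.19 and 9.69 in the 3-day arrays. Eln, elastin, had 8.44 and 8.02 and 8.76, 8.94, 9.11 and 9.23, a difference of 0.78 ± 0.15 (limma, adjusted p = 0.151). Loxl1, the oxidase that acts on elastin, had 9.004 and 9.20 and 9.96, 10.52, 9.62 and 9.73. These 3 did not overlap with control, and their 7-day means were 9.05, 8.39 and 9.35. Of 22 genes, 11 (50.0%) lay above both controls and none below, with medians of 0.51 and 0.30. The list mean was 8.64, 9.04, 8.68 and 8.74 in the 3-day arrays and 8.23 and 8.50 in the controls.

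Collagens depended on the control. Of 28 measured chains, 4 (14.3%) lay above both controls and 2 below, and the median was 0.34 against control replicate 1 and 0.08 against control replicate 2. Col1a1, the main chain of dermal collagen, had 10.38 and 11.64 in the controls and 11.67, 12.41, 12.22 and 11.99 in the 3-day arrays. Its lowest 3-day value lay just above control replicate 2. The 3 chains of type V collagen, which nucleates thin fibrils, were the clearest: Col5a1 had 8.81, 9.45, 8.92 and 8.99 against 7.93 and 8.56, Col5a2 had 8.88, 9.70, 9.51 and 9.28 against 8.47 and 8.75, and Col5a3 had 7.93, 8.82, 7.89 and 7.91 against 7.36 and 7.26. Chains of basement membranes lay close to control, with Col7a1 and Col17a1 at -0.03 and -0.06.

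Of 30 fibroblast and proteoglycan genes, 29 had a difference above 0 and 6 (20.0%) lay above both controls. Fn1, fibronectin, had 11.02 and 11.49 and 12.03, 12.12, 11.65 and 12.06. Omd, a small proteoglycan, had 6.90 and 6.93 in the controls and 7.94, 7.13, 7.26 and 7.71 in the 3-day arrays. Dcn and Lum, abundant proteoglycans of the dermis, differed by 0.08 and 0.23 and were not clear of both.

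RNAs of the Dlk1-Dio3 interval, an imprinted stretch that produces long noncoding RNAs, small nucleolar RNAs and a large microRNA cluster from the maternal chromosome, were in large part higher in the 3-day arrays. The interval was taken up after its values had been seen, with members by RefSeq order. Rian, the long RNA that hosts the small nucleolar RNAs, had 6.69 and 7.53 in the controls and 8.46, 9.13, 8.17 and 8.74 in the 3-day arrays. Its difference was 1.51 ± 0.30 (limma, adjusted p = 0.181), and its 7-day mean of 7.05 lay between the controls. Of 54 measured genes, 51 had a difference above 0, 27 (50.0%) lay above both controls and 21 did so by 0.5 or more, with medians of 0.52 and 0.48. Replicate 2 had the highest of the 4 three-day values in 39 of the 54. The lowest value was in replicate 3 in 25 and in replicate 1 in 18. The 21 genes clear by 0.5 belong to the 202 genes at least 0.5 above the nearer control, 10.4% of that set and 38.9% of the interval.

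Among 43 microRNA genes of the interval, 20 (46.5%) lay above both controls. Mir377 had 2.90 and 3.01 in the controls and 4.19, 4.51, 3.95 and 4.24 in the 3-day arrays, near the lower quartile of the arrays and without overlap. Its difference was 1.27 ± 0.15 (limma, adjusted p = 0.0624), and between the PUVA groups it fell by 1.12 from the 3-day to the 7-day mean (limma, adjusted p = 0.0303). Mir453 had 5.99 and 6.76 and 7.75, 8.53, 7.77 and 8.22. The small nucleolar RNA genes named AF357355, DQ267101 and DQ267102 lay higher by 1.34 ± 0.28, 1.42 ± 0.34 and 1.26 ± 0.25. Dlk1, a paternally expressed signalling protein at one end, had 5.19 and 5.08 in the controls and 5.53, 5.47, 5.78 and 5.62 in the 3-day arrays. Meg3, a maternal long RNA, had 5.53 and 5.33 and 5.57, 5.57, 5.31 and 5.44, and Dio3, a deiodinase at the other end, had 3.20 and 3.31 and 3.22, 3.31, 3.38 and 3.55, neither clear of the controls.

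**Figure D4:**
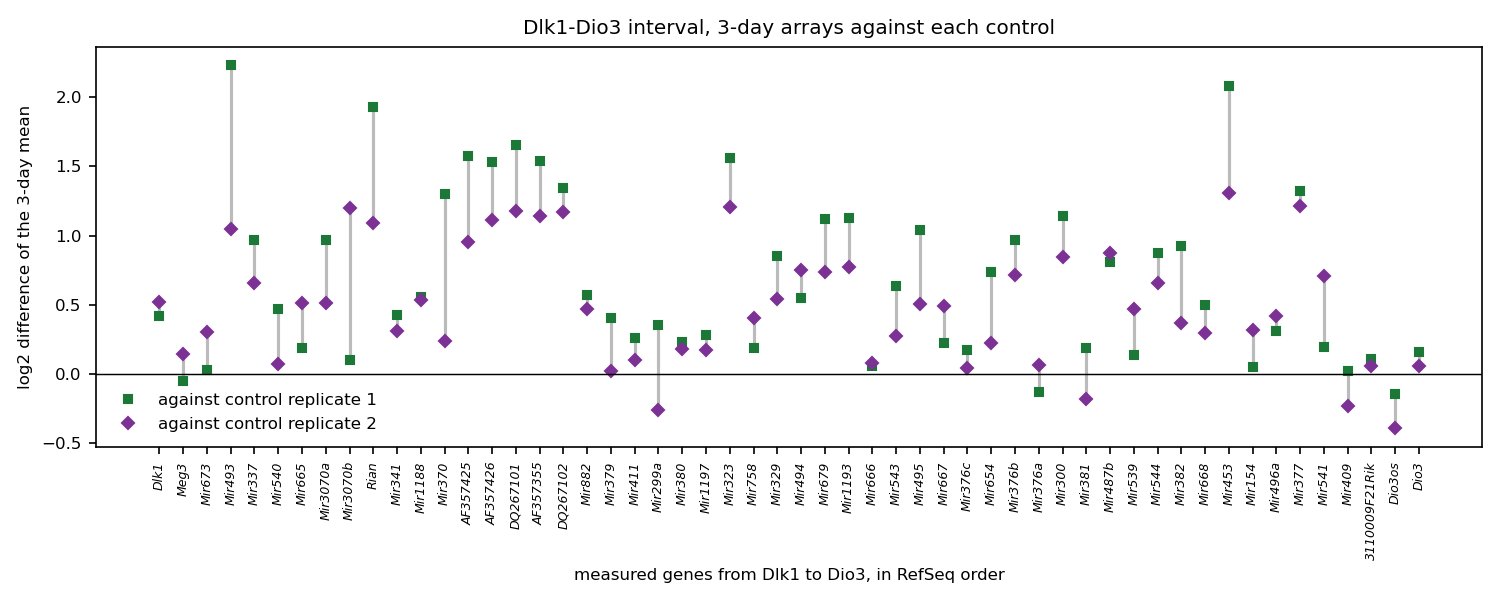
Log2 difference of the 3-day mean from control replicate 1 (green squares) and control replicate 2 (purple diamonds) for the 54 measured genes from Dlk1 to Dio3, in RefSeq order. Most genes lay above 0 against both controls, with Mir453, Mir493 and Rian among the highest, while Meg3 and Dio3 lay near 0.

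MicroRNA genes elsewhere leaned the other way. Of 441, 59 (13.4%) lay below both controls and 26 (5.9%) above, with 19 lower by 0.5 or more and a median of -0.02. The let-7 family, whose members share a seed and are abundant in differentiated tissue, was among the lower ones. Of 11, 6 (54.5%, against 7.89% of all genes) lay below both controls and 1 above, with a median of -0.56. Mirlet7c-2 had 7.89 and 7.43 in the controls and 6.37, 6.62, 5.95 and 6.17 in the 3-day arrays. Mir29a, of a family that targets matrix genes, had 4.71 and 4.27 and 3.42, 3.12, 3.07 and 3.23, and Mir200a, an epithelial microRNA, had 7.05 and 6.99 and 6.29, 6.24, 6.43 and 6.44. These probe sets read the gene or its precursor as well as any mature form, and the files do not separate them.

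Imprinted growth genes outside that interval were in part higher too. Of 19 genes of the insulin-like growth factor axis and imprinted loci, Dlk1, Rian, Meg3 and Dio3 left out, 11 (57.9%) lay above both controls and none below, with a median of 0.34. Plagl1, an imprinted zinc finger factor, had 6.69 and 6.60 in the controls and 7.45, 6.997, 7.37 and 7.19 in the 3-day arrays. Grb10, an imprinted adaptor that restrains insulin signalling, had 8.09 and 8.26 and 8.94, 8.90, 8.52 and 8.89. Cdkn1c, the imprinted cell cycle inhibitor p57, had 5.76 and 5.68 and 6.96, 6.12, 6.30 and 6.59. Igf2 itself differed by 0.38 and 0.29 from the controls.

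Immediate early genes, which answer within minutes to growth factors, stress or handling of the tissue, were partly higher. Fos had 7.18 and 6.87 in the controls and 9.41, 8.09, 8.25 and 8.73 in the 3-day arrays, with replicate 1 the highest and no overlap, and a 7-day mean of 8.47 ± 0.65 (SD, n = 4). The difference was 1.60 ± 0.42 (limma, adjusted p = 0.303). Klf2, a factor of quiescent endothelium and lymphocytes, had 6.37 and 6.65 and 7.78, 8.21, 7.27 and 7.70, and Dusp1, a phosphatase of stress kinases, had 9.88 and 9.75 and 10.91, 10.33, 10.56 and 10.61. Of 27 genes, 11 (40.7%) lay above both controls and 1 below. Nr4a1 and Atf3 differed by -0.07 and 0.07 from control replicate 1 and by 0.99 and 1.12 from control replicate 2.

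Circadian clock outputs were lower. Of 17 clock genes, 7 (41.2%) lay below both controls and 2 above, with medians of -0.19 and -0.38. Bhlhe41, a repressor of the clock, had 7.89 and 8.05 in the controls and 6.99, 6.69, 7.21 and 6.88 in the 3-day arrays. Per3 had 7.86 and 9.001 and 7.65, 7.38, 7.54 and 7.53, and Ciart, another repressor, 7.11 and 7.62 and 6.50, 6.54, 6.99 and 6.86. Arntl and Npas2, the activating arm, differed by -0.22 and -0.19 from control replicate 1 and by 0.87 and 1.06 from control replicate 2, so the controls themselves differed in these genes. The labels give no time of day.

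Genes of senescence, which the series title names, showed no shared shift. Cdkn1a, the p53-induced inhibitor p21, had 10.98 and 10.62 in the controls and 10.98, 10.62, 11.03 and 10.84 in the 3-day arrays. Cdkn2a, whose locus encodes p16 and Arf, had 5.87 and 5.92 and 5.89, 5.32, 5.88 and 5.89. Lmnb1, lamin B1, whose loss marks senescent cells, had 7.64 and 8.30 and 7.54, 7.84, 7.46 and 7.43, at the level of control replicate 1 and below control replicate 2. Of 13 inhibitors and lamin genes, 1 lay above both controls (Cdkn1c) and none below. Of 24 targets of p53, 2 (8.33%) lay above and 1 (4.17%) below both, under the 9.52% and 7.89% of all genes, with a median of 0.02.

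Of 37 secreted factors often tied to senescence, 7 (18.9%) lay above both controls and none below, with medians of 0.25 and 0.19. Besides Ccl2, Ccl7 and Csf1 they were Igfbp6, Timp1, Igfbp5 and Timp2. Igfbp6, which binds insulin-like growth factor 2, had 10.15 and 10.05 in the controls and 10.71, 11.36, 10.58 and 10.80 in the 3-day arrays. Il6 had 3.12 and 2.81 and 4.14, 3.90, 2.70 and 3.46, near the dim end, with replicate 3 below both controls.

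Surface epidermis genes leaned slightly lower, mainly against control replicate 1. Krt14, the basal keratin, had 12.18 and 12.01 in the controls and 11.96, 11.76, 11.97 and 11.96 in the 3-day arrays. Of 16 basal keratinocyte genes, 3 (18.8%, against 7.89% of all genes) lay below both controls and none above, with a median of -0.11. Of 41 genes of the cornified envelope and barrier, 4 (9.76%, near the 7.89% of all genes) lay below both controls and 1 above. The medians were -0.26 and -0.03 against control replicates 1 and 2. Against control replicate 2 alone, 23 genes lay lower and 18 higher. Klk8 and Klk5, serine proteases of shedding, had differences of -0.59 ± 0.13 and -0.39 ± 0.13, with all 4 three-day arrays below both controls. Loricrin, Lor, ranged over 11.37, 11.28, 10.75 and 10.47 against 10.89 and 10.81.

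Psoriasis genes were near control. Il17a stayed between 3.23 and 3.63 on the 6 arrays, and Il17f, Il22 and Il23a differed by -0.13 ± 0.11, 0.09 ± 0.10 and -0.02 ± 0.11. S100a8, an antimicrobial protein of inflamed epidermis, had 4.23 and 3.887 in the controls and 3.75, 3.885, 3.65 and 3.62 in the 3-day arrays. These values sit near the dim end, and replicate 2 lay below control replicate 2 only in the third decimal. Krt16 had 6.22 and 5.66 and 5.95, 5.29, 6.34 and 5.95. Of 36 genes of activated epidermis and the IL-17 axis, 2 (5.56%) lay above both controls (Il20 and Stfa3). Below both lay 2 (5.56%), Defb4 and, by that margin alone, S100a8. Both shares were under those of all genes, 9.52% and 7.89%. Krt6b, a keratin of hyperproliferative epidermis, had 6.05 and 5.38 and 6.98, 5.999, 7.01 and 6.88, while Krt6a, its close relative, had 9.46 and 8.95 and 7.99, 8.32, 10.06 and 8.94. Their sequences are near copies, so signals may be shared.

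Nerve and vessel genes lay slightly higher. Of 12 Schwann cell genes, 7 (58.3%) lay above both controls, with a median of 0.27. Mbp, myelin basic protein, had 7.32 and 7.19 in the controls and 7.62, 7.56, 7.62 and 7.73 in the 3-day arrays, and Pmp2, the lipid carrier of peripheral myelin, which is not in the list, had 4.58 and 4.90 and 6.29, 6.20, 5.42 and 5.82. Of 20 endothelial genes, 9 (45.0%) lay above both, with a median of 0.21. Tek, the angiopoietin receptor, had 8.24 and 7.95 and 9.20, 8.61, 8.50 and 8.66. Tmem100, an endothelial and mesenchymal membrane protein outside the list, had 8.17 and 7.73 and 9.69, 9.50, 8.87 and 9.47.

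Fat genes leaned slightly lower, mainly against control replicate 1, and muscle genes did so against control replicate 1 only. All 15 adipocyte genes had a difference below 0, with a median of -0.13. Of these, 3 (20%, against 7.89% of all genes) lay below both controls, and the medians were -0.21 and -0.05 against control replicates 1 and 2. Retn, resistin, had 11.30 and 11.29 in the controls and 11.02, 10.90, 10.37 and 10.67 in the 3-day arrays. Of 19 skeletal muscle genes, 1 (5.26%, under the 7.89% of all genes) lay below both, with medians of -0.185 and -0.022. The muscle list mean was 11.195 and 11.000 in the controls and 11.268, 10.831, 10.782 and 11.078 in the 3-day arrays. Replicate 1 was the highest 3-day array in 19 of 19. Acta1 had 13.06 and 12.96 and 12.99, 12.85, 12.81 and 12.94.

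Melanocyte genes again divided by control. Of 13, 2 (15.4%, against 7.89% of all genes) lay below both controls. The median was 0.04 against control replicate 1 and -1.07 against control replicate 2. Dct, an enzyme of melanin synthesis, had 8.27 and 9.97 in the controls and 7.55, 8.09, 8.92 and 8.40 in the 3-day arrays. Tyrp1 had 6.83 and 8.92 and 6.04, 6.68, 7.86 and 6.91, the widest spread of the list.

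Targets of other stress sensors were level. Of 9 aryl hydrocarbon receptor targets, 1 lay above both controls (Tiparp), and Cyp1a1 had 7.85 and 7.22 in the controls and 5.94, 6.99, 7.29 and 7.30 in the 3-day arrays. Of 19 genes of NRF2 and metallothioneins, 2 lay above and 2 below, with a median of -0.004. The single red blood cell gene measured, Slc4a1, had 4.99 and 5.14 in the controls and 4.81, 4.51, 4.90 and 4.59 in the 3-day arrays.

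Some of the genes farthest from both controls belonged to none of the lists. Nrk, a protein kinase related to Nik, lay farthest above the nearer control of all genes tested, with 4.63 and 4.70 in the controls and 6.36, 7.77, 5.03 and 5.66 in the 3-day arrays. Its 3-day values spread widely, and its difference was 1.54 ± 0.59 (limma, adjusted p = 0.457). Tubb4a, a beta tubulin best known from the nervous system, had 6.51 and 6.72 and 8.12, 7.95, 7.30 and 8.003. Cmah, the hydroxylase that makes the sialic acid Neu5Gc, had 7.58 and 7.80 and 9.16, 9.23, 8.22 and 8.87. On the lower side Serpinb6e, a serine protease inhibitor of the clade B family, had 9.75 and 9.02 and 7.33, 8.09, 8.51 and 8.09, and Aadacl4fm1 had 6.89 and 6.64 and 5.36, 5.78, 5.79 and 5.88. In each of these the groups did not overlap, which the choice of genes clear of both controls required.

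Values of the 7-day arrays were set beside the largest differences. Among the 15 named genes farthest below both controls, the 7-day mean lay between the control and 3-day means in 12, and in 9 of the 15 farthest above. These genes were chosen for extreme 3-day values, which by itself favours a 7-day mean nearer to control. No share over all genes was set beside the counts, and no conclusion is drawn from them. The exceptions on the lower side included root sheath keratins, for which 3-day and 7-day means were close, as with Krt71 at 4.81 ± 0.55 (SD, n = 4) and 4.71 ± 0.58 (SD, n = 4). Krt27, Tchh and Krt28 counted as between, yet their 7-day minus 3-day differences were only 0.07, 0.04 and 0.01. The exceptions on the upper side were Rian, Ccl12, DQ267101, DQ267102, AF357355 and AF357426. Their 7-day means lay below the control mean, with differences of -0.255 to -0.038. Cyp2g1, Awat2 and Rian had 7-day means nearer to control, and their 7-day minus 3-day differences were 2.21 ± 0.34, 1.54 ± 0.29 and -1.58 ± 0.25 (limma, adjusted p = 0.128, 0.167 and 0.128). Only Hamp and Mir377 passed in that comparison.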

How the data were processed

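The deposited table holds 1 log2 value per probe set and array, 41345 rows, made by the authors; its normalization is not given in the sources used here, nor is the log base, which was inferred from the range. Gene names came from GEO's annotation of the platform, in which 23521 probe sets had 1 symbol, 1814 several and 16010 none. For 1082 genes with more than 1 probe set, the one with the highest mean was taken, with no filter on dim signals. Using limma 3.58.1 (R 4.3.3), the 3 groups' means on the 10 arrays were estimated by lmFit and tested by eBayes (two-sided, 7 residual and 3.514 prior degrees of freedom) and adjusted over 22180 genes by Benjamini-Hochberg. This takes 1 spread per gene for all groups, so errors are too small where only the controls differ. The scripts were tested on simulated data. Of 966 symbols written into 39 lists (keratin-associated proteins by symbol), 882 were matched, 9 through a synonym; 21994 genes were found in RefSeq (GRCm38.p6), used for names and order only. Members and lists were chosen with earlier results of these data known. Named genes were those past 0.05, the 15 farthest from the nearer control in each direction (symbols of gene models, microRNAs and other small RNAs, and receptors left out; 4 small nucleolar RNA genes with other symbols stayed in), 4 members per list by smallest p, and a fixed set; other genes, small RNAs included, were named after their values were seen. Replicate numbers follow sample order. No batch or scan date was given in the sources used here. Precision is set by the number of arrays, which have no depth of reads. Alternatives were leaving out the dimmest 30% of genes, the mean of a gene's probe sets, quantile normalization, centring on medians, trend and robust settings, array weights, fewer groups, other thresholds and leaving out each array.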

Additional observations from a re-analysis of the deposited data

Results flagged for a closer look

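Within the 4 three-day arrays, 299 groups of 4 values (39 list means and 260 genes) were examined for a single array far from the other 3, by Dixon's gap test, and 18 stood out. Chance alone gives about 1 in 20. In 11 of the 18 the array was replicate 2.

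Among the list means, the clock list had a mean of 8.239 in replicate 2 and 8.414 to 8.440 in the others. The inner root sheath list had a mean of 5.780 in replicate 3 and 5.408 to 5.441 in the others. In replicate 2, Cd68 was at 10.998 (others 10.122 to 10.156), Col5a3 at 8.815 (7.890 to 7.930), Parp9 at 8.520 (8.212 to 8.240), Rsad2 at 6.216 (5.731 to 5.790) and Carns1 at 7.309 (6.649 to 6.727), each the highest. In the same array Cdkn2a was at 5.324 (others 5.880 to 5.890), Krt14 at 11.763 (11.956 to 11.967), Krt33a at 4.807 (5.036 to 5.071), Krt6b at 5.999 (6.880 to 7.006) and Tef at 7.044 (7.240 to 7.254), each the lowest. Replicate 3 had Grb10 at 8.517 (others 8.886 to 8.943), Slc40a1 at 8.696 (8.046 to 8.107) and Htra3 at 9.638 (9.471 to 9.494). Replicate 4 had Klrk1 at 5.743 (5.308 to 5.367) and Fancf at 6.662 (6.623 to 6.628). Hamp was at 4.087 in replicate 1 and at 3.405 to 3.440 in the others.

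Hamp and Mir377 differed between the PUVA groups by the limma contrast of the 7-day with the 3-day arrays. The former was higher in the 7-day group by 3.592 on the log2 scale (adjusted p = 0.022) and Mir377 differed by -1.121 (adjusted p = 0.0303).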

How the results depend on the processing

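No paired analysis was possible because the numbers in the sample titles are not shared between groups. Of 260 named genes, 219 kept their side of the threshold under 17 alternatives, Hamp among them, and 41 passed it under at least 1. Genes past the threshold numbered 2 with arrays centred on their medians, 3 with array weights, 16 at an adjusted p of 0.1, and 1 to 182 with an array left out. At a distance of 0.25 from the nearer control, 808 genes were clear upward and 383 downward. At a distance of 1 the counts were 19 and 17, and with an array left out 149 to 596 and 59 to 544. With the lowest 30% of genes left out, the medians were -2.600 for the inner root sheath, -0.057 for activated epidermis and 0.644 for the Dlk1-Dio3 interval. With an array left out, medians ranged from -0.670 to 0.008 for DNA replication and -1.072 to 0.044 for melanocytes, both with the sign turned without control replicate 2. The range was -2.712 to -0.162 for the inner root sheath, -0.927 to -0.174 for the hair shaft, -0.278 to -0.031 for follicle signals, -0.640 to -0.097 for mitosis, -0.164 to -0.037 for repair and -0.379 to -0.194 for the clock. It was 0.075 to 0.335 for collagens, -0.260 to -0.025 for the cornified envelope, -0.064 to 0.095 for activated epidermis, -0.028 to 0.089 for iron, 0.000 to 0.146 for neutrophils and -0.059 to 0.056 for p53 targets. Of 39 list medians, 25 stayed within 1 SD throughout. Where 1 control was left, its spread was taken to be that of the other groups. The cause of these shifts was not tested. The Dlk1-Dio3 and let-7 sets and their alternatives were added after seeing the data. Signal over background was not known for these arrays.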

Other observations

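Of the 202 genes at least 0.5 above the nearer control, 56 were in the lists. The genes named here lay outside the lists and were chosen after their values were seen. Several are known from macrophages. Stab1, a scavenger receptor, had 8.43 and 8.39 in the controls and 9.10, 9.61, 8.58 and 9.05 in the 3-day arrays. P2ry12, a receptor for ADP, had 6.64 and 6.74 and 7.55, 8.20, 7.07 and 7.32, and Fcgr4, a receptor for immunoglobulin G, had 4.74 and 4.70 and 5.37, 6.32, 5.04 and 5.48. In these 3 genes replicate 2 was the highest and replicate 3 the lowest of the 4, as in the macrophage list. Ccr3, the eotaxin receptor of eosinophils, kept another order, with 5.09 and 5.25 and 5.90, 6.35, 5.50 and 6.55. Cxcl13, which attracts B cells, had 8.88 and 8.34 and 9.56, 10.03, 9.93 and 9.61, with a 7-day mean of 9.75.

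Others are stromal or glial. Htra3, a secreted protease, had a narrow spread, with 8.89 and 8.87 in the controls and 9.49, 9.49, 9.64 and 9.47 in the 3-day arrays, a difference of 0.65 ± 0.11 (limma, adjusted p = 0.117). Chrdl1, an antagonist of bone morphogenetic proteins, had 8.04 and 7.78 and 9.27, 8.71, 8.83 and 8.96. Agtr1a, the angiotensin receptor, had 7.70 and 7.56 and 8.54, 8.55, 8.50 and 8.36, and Tnfaip6, which modifies hyaluronan, 7.90 and 7.49 and 8.45, 8.66, 8.69 and 8.75. Of glial genes, Pllp, plasmolipin of myelin, had 6.19 and 6.18 and 6.72, 6.81, 6.79 and 6.79, and Ugt8a, which makes the galactolipids of myelin, 6.47 and 6.17 and 7.33, 7.71, 7.13 and 7.02.

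On the lower side, Cartpt, a neuropeptide precursor, had 7.06 and 6.10 in the controls and 5.36, 5.40, 5.39 and 5.31 in the 3-day arrays. Atp6v1b1, a subunit of the proton pump, had 6.47 and 7.33 and 5.50, 5.65, 5.74 and 5.73, and Bsnd, a chloride channel subunit, 6.84 and 6.20 and 5.51, 5.54, 5.84 and 5.75. None of the genes named in these paragraphs passed the threshold over all 10 arrays (limma, adjusted p of 0.05).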
